A study of Homo sapiens with 6 samples.

Results

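The 9 genes described here encode enzymes that make, salvage or remove the deoxynucleotides used to build DNA: RRM1, RRM2, RRM2B, TYMS, TK1, DUT, DCK, DTYMK and SAMHD1. They were taken from a table of 60612 genes by their names. The choice of these names was made with earlier results of these data known, so the share of them that fell is a description. All 9 were present in the table and all 9 passed the filter on low counts, which left 18106 genes for testing. RNA was sequenced from U87, an established human glioblastoma cell line grown in medium with serum. The 3 control libraries (NC) came from cells given a lentivirus with a scramble shRNA, and the 3 shPRMT6 libraries from cells given a lentivirus with an shRNA against PRMT6, an arginine methyltransferase that modifies histones and other proteins. Both groups therefore carried a lentiviral shRNA, with polybrene used for its delivery. The shRNA of the sequenced cells is not named in the sources used here, and the study's methods call the libraries of a group independent replicates. How the cultures were kept apart is not described further, so p-values measure the spread between these libraries.

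Deoxynucleotides are made along a few connected routes. Ribonucleotide reductase, formed by the large subunit RRM1 with a small subunit, either RRM2 or RRM2B, converts ribonucleoside diphosphates to deoxyribonucleoside diphosphates, and RRM2 is the small subunit of dividing cells while RRM2B is a p53 target that also serves resting cells. Thymidine nucleotides need further steps: DUT hydrolyses dUTP to dUMP, TYMS methylates dUMP to dTMP with a folate as the carbon donor, and DTYMK phosphorylates dTMP. TK1 and DCK salvage thymidine and deoxycytidine by phosphorylation, and SAMHD1 hydrolyses deoxynucleoside triphosphates. Several of these genes are transcribed mainly around S phase, when DNA is copied, under the control of E2F factors.

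The library depth was between 56388161 and 75887696 counts, and TMM scaling factors lay between 0.9923 and 1.0096. PRMT6 RNA fell in the shPRMT6 libraries, from counts of 522, 606 and 449 in the NC libraries to 227, 282 and 355 in the order of the replicates (log2 fold change -0.87, edgeR adjusted p = 0.0225, lost in 3 of 6 fits without 1 library). The label of a glioblastoma line was checked against its markers. VIM (7988 CPM in NC), CD44, FN1, TNC and CAV1 were abundant, and NES was measured at 40.9 CPM in NC. Of these markers FN1 (log2 fold change -0.72, edgeR adjusted p = 0.00246) and TNC (-0.35, edgeR adjusted p = 0.00585) fell in shPRMT6. MTAP (0.42 CPM in NC) and CDKN2A (0 CPM), which are deleted in U87, were near or at 0. Of 5 immune markers AIF1 and CD3E were at 0 in every library and PTPRC and CD14 near 0. CD68, a lysosomal gene also found outside immune cells, was measured at 215.1 CPM in NC and 202.9 CPM in shPRMT6. The neuronal gene SNAP25 was measured at 19.5 CPM in NC and 18.6 CPM in shPRMT6. The neuron markers GAD1 (8.9 CPM in NC), SYT1 (7.41), RBFOX3 (0.328) and SLC17A7 (0.184) were lower than it. Of the endothelial markers PECAM1 was at 2.89 CPM in NC and 4.7 CPM in shPRMT6. VWF (0.152 CPM in NC and 0.586 CPM in shPRMT6), CDH5 and CLDN5 were near 0.

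The promoter windows of 3 of the genes are shown first, because RRM2 and TYMS were among the genes that fell while RRM1 did not, although RRM1 and RRM2 encode partner subunits. The sequences come from the RefSeq promoter table (GRCh38.p14), which holds 8 of the 9 genes and lacks RRM2B. The window searched was the 250 bases before the annotated start of each gene. Capitals mark the letters CCAAT, the core of a box bound by the NF-Y complex, and the E2F-like letters TTTCCCGC, TTTGGCGC, TTTCGCGC or TTTGCCGC, each on either strand. The stretches printed leave out the bases that a GENCODE 29 transcript of the gene places in an untranslated region, except 5 bases in RRM2 and 20 in TYMS that carry a match. The RRM2 stretch lies at chr2:10122614-10122729, the TYMS stretch at chr18:657403-657623 and the RRM1 stretch at chr11:4094435-4094684, all on the plus strand and written in the direction of transcription.
RRM2: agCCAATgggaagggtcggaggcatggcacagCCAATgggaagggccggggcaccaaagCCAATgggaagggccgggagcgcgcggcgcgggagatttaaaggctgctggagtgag
TYMS: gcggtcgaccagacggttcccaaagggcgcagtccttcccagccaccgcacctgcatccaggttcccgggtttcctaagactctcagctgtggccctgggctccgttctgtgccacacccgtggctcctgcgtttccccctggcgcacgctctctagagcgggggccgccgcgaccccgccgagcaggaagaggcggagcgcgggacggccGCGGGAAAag
RRM1: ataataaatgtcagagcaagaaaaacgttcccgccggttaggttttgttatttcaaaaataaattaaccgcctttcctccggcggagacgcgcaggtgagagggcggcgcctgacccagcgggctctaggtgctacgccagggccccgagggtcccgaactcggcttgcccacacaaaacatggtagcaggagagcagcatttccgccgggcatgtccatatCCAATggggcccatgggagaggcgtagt

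The RRM2 window held 3 CCAAT matches, which began 123, 93 and 66 bases before the start, and no E2F-like match. In GENCODE 29 longer transcripts of RRM2 run through this stretch. The TYMS window held 1 E2F-like match, read as GCGGGAAA, from 39 to 32 bases before the RefSeq start, and no CCAAT match. That match lies inside the first exon as GENCODE 29 places it. The RRM1 window held 1 CCAAT match from 28 to 24 bases before the start, no E2F-like match and, not in capitals, 1 match to the letters TTTGAA (the core of the CHR element of cell cycle genes). Only the exact letters given were searched, and near matches were not counted. The RRM1 stretch holds gttcccgc, which differs from TTTCCCGC in 1 letter, so the lack of a match does not show that an E2F site is absent. Over the 8 genes, CCAAT was found in 4 (RRM1, RRM2, DTYMK and SAMHD1) and the E2F-like letters in 1, while CCAAT occurred in 32% and the E2F-like letters in 2.79% of 35116 promoter windows of the same length. The windows of TK1, DUT and DCK held neither. The letters TTTGAA, on either strand, were found in RRM1 alone of the 8 genes and in 13.3% of the 35116 windows. The letters GGGCGG (a GC box) were also searched. They were found in RRM1, TK1, DCK and DTYMK, and in 42.6% of the 35116 windows. Of the 4 genes with CCAAT, RRM2 and DTYMK were among those that fell and RRM1 and SAMHD1 were not. The CCAAT matches of DTYMK and SAMHD1 also lie inside these genes as GENCODE 29 places them, past its most upstream start.

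The deoxynucleotide enzymes were mostly lower in shPRMT6 cells. RRM2, TK1, TYMS, DUT, DCK and DTYMK fell, RRM1, RRM2B and SAMHD1 did not pass the test, and no gene of the 9 rose. Thus 6 of 9 were lower by edgeR's quasi-likelihood test (adjusted by Benjamini-Hochberg over the 18106 genes, under 0.05), where 9.06% of all genes tested were lower and 9.51% were higher. The log2 fold changes ran from -1.66 for RRM2 to 0.14 for RRM1, with a median of -0.55, and the median of all genes tested was -0.013. The groups did not overlap for 7 genes that were lower (the same 6 and RRM2B) and for 1 that was higher (RRM1), where 19.9% of all genes were lower without overlap and 20.3% higher. In either direction, 40.2% of all genes did not overlap. At an adjusted p under 0.01, 4 of the 9 were lower (RRM2, TYMS, TK1 and DCK) with 3.57% of all genes. Only RRM2 and TK1 of the 9 were lower by the looser p of the study's methods, unadjusted and under 0.05, together with a log2 change beyond 1 in size, where 2.63% of all genes were. At that unadjusted p alone, 1 of the 9 was higher (RRM1), where 16.3% of all genes were, and DESeq2 called the same gene higher at an adjusted p under 0.05. In bulk RNA, fewer cells that express a gene, such as cells in S phase, and less of its RNA in each cell cannot be told apart.

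**Figure D1:**
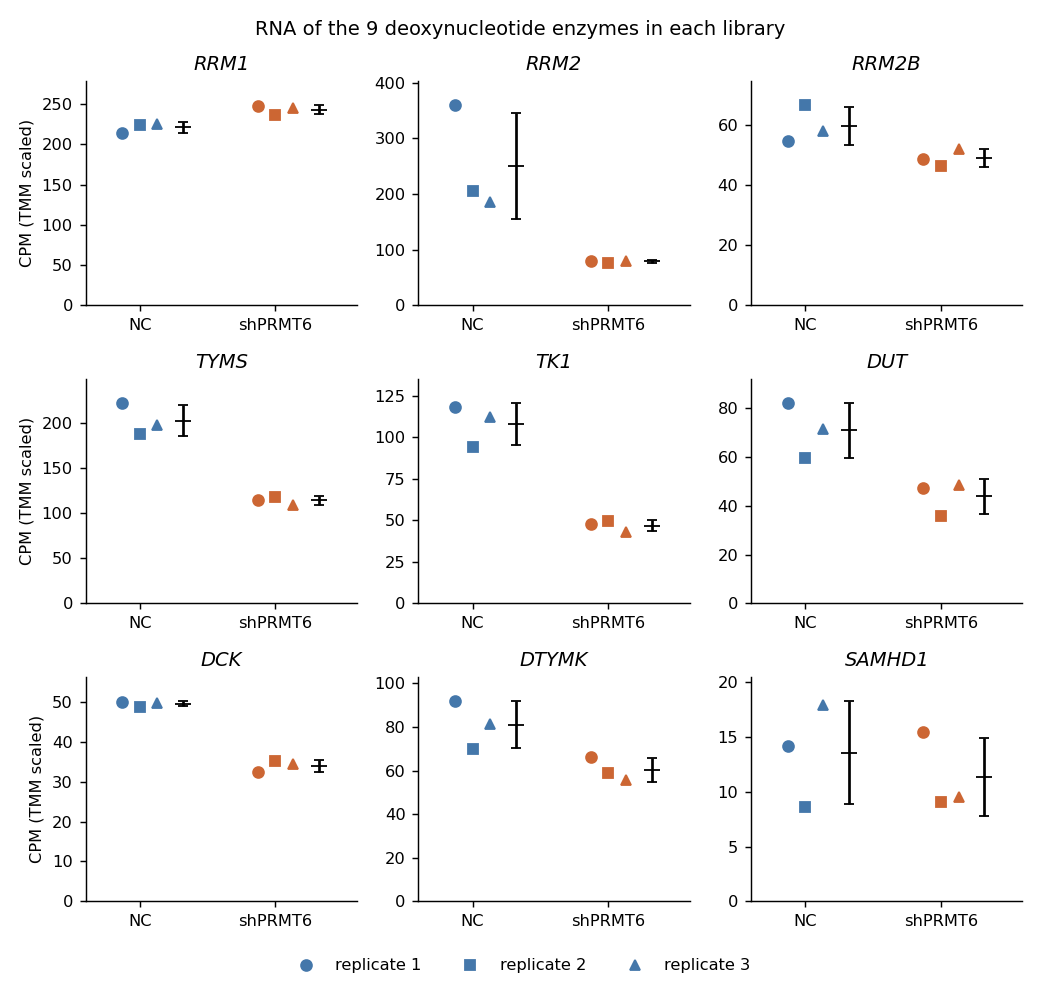
Each panel shows 1 gene, with RNA in CPM (counts scaled to library size by TMM) on the y axis from 0 and the NC and shPRMT6 groups on the x axis. Points are libraries, with a shape for each replicate number, and the black bar is the mean ± SD of 3 libraries. All shPRMT6 points lie below all NC points for RRM2, RRM2B, TYMS, TK1, DUT, DCK and DTYMK, the reverse holds for RRM1, and the groups overlap for SAMHD1.

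The subunits of ribonucleotide reductase did not move together. RRM2 RNA fell to 31.6% of its NC level, whereas RRM1 RNA was 110.0% of NC and RRM2B RNA 82.2% of NC, neither of which passed the test. RRM2 (ENSG00000171848), the small subunit of dividing cells, is encoded on the plus strand of chromosome 2 (10120698 to 10131419, GRCh38, as for all positions here). In NC replicates 1, 2 and 3 its level was 359.5, 205.1 and 185.8 CPM, and in shPRMT6 it was 80.5, 76.3 and 80.1 CPM in the same order. The shPRMT6 libraries thus sat close together and below all NC libraries, while NC replicate 1 stood well above the other NC libraries. The means were 250.1 ± 95.2 CPM in NC and 79.0 ± 2.33 CPM in shPRMT6 (SD, n = 3), a log2 fold change of -1.66 (SE 0.248, edgeR adjusted p = 0.00655). Without NC replicate 1 the log2 fold change was -1.31, and over the fits that left out 1 library each it lay between -1.84 and -1.31 with an edgeR adjusted p between 0.00195 and 0.0329. Among all tested genes with a log2 fold change below 0, called or not, RRM2 ranked at 228 by the size of its fold change. By p it ranked at 473 among them, since its NC values were spread (coefficient of variation 38.0% in NC and 2.95% in shPRMT6). The counts of RRM2 carry some uncertainty, because 19.0% of its 75-base stretches also occur in other annotated transcripts, those of the overlapping gene AC007240.1 on the same strand and of the copies RRM2P3 and RRM2P2.

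RRM1 (ENSG00000167325), the large catalytic subunit that both small subunits share, lies on chromosome 11 from 4094707 to 4138876 on the plus strand. Its RNA was 213.6, 224.4 and 224.9 CPM in NC and 247.5, 236.5 and 244.9 CPM in shPRMT6, in the order of the replicates. Every shPRMT6 library was above every NC library, yet the difference was small. The means of 220.9 ± 6.37 and 243.0 ± 5.75 CPM (SD, n = 3) gave a log2 fold change of 0.14 (SE 0.0519, edgeR adjusted p = 0.122), which missed the threshold. With DESeq2 the adjusted p was 0.0124, and RRM1 then passed as higher. Over all alternatives of edgeR, DESeq2 and limma it ranged from 0.0124 to 0.299.

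RRM2B (ENSG00000048392), the small subunit induced by p53, lies on chromosome 8 from 102204502 to 102239118 on the minus strand. Its RNA was 54.5, 66.6 and 58.0 CPM in NC and 48.7, 46.4 and 52.1 CPM in shPRMT6, in the order of the replicates. All shPRMT6 values lay below all NC values, by a narrow margin. The log2 fold change of -0.28 (SE 0.0956, edgeR adjusted p = 0.0896) missed the threshold, and with DESeq2 it passed (adjusted p = 0.0163, with a range of 0.0163 to 0.239 over the alternatives of edgeR, DESeq2 and limma).

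The balance of the subunits was compared within each library, as a ratio of FPKM values, which are scaled to gene length. The ratio of RRM2 to RRM1 was 0.778, 0.422 and 0.382 in the NC libraries and 0.15, 0.149 and 0.151 in the shPRMT6 libraries. It fell from 0.527 ± 0.218 to 0.15 ± 0.00107 (SD, n = 3), while the mean of the log2 ratios differed by -1.74, or 3.34-fold between geometric means, with no overlap between groups (two-sided exact permutation test, p = 0.1, the smallest that 3 libraries against 3 allow). The ratio of RRM2B to RRM2 was 0.257, 0.552 and 0.53 in NC and 1.03, 1.03 and 1.11 in shPRMT6. This ratio of the small subunits was 0.446 ± 0.164 in NC and 1.06 ± 0.0433 in shPRMT6 (SD, n = 3), higher in each shPRMT6 library than in each NC library, by 1.32 in the mean log2 ratio, or 2.5-fold between geometric means (two-sided exact permutation test, p = 0.1). Neither test can reach 0.05 in this design. The absolute size of the ratios depends on the gene length behind the FPKM: the length implied by the table for RRM2 was 10874 bases, 2.04 times its exons in GENCODE 29, whereas for the other 8 genes it was 1.14 to 1.2 times. With counts divided by the length of the principal GENCODE 29 transcript, a scaling added after the data were seen, RRM2 to RRM1 was 1.02 ± 0.423 in NC and 0.291 ± 0.00209 in shPRMT6, and RRM2B to RRM2 was 0.183 ± 0.0671 and 0.432 ± 0.0176 (SD, n = 3). Since a change of length multiplies all ratios by a constant, the log2 differences are the same on both scales by construction, but by transcript length RRM2B stayed below RRM2 in shPRMT6.

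**Figure D2:**
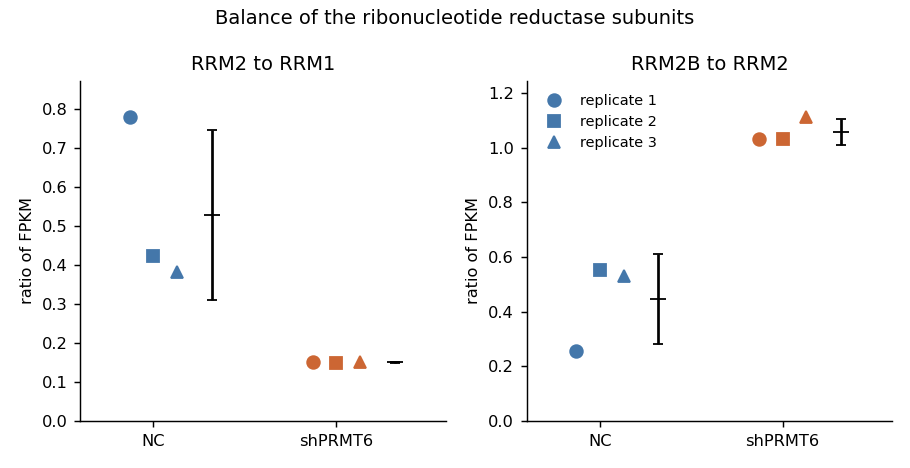
The y axis gives the ratio of FPKM values within a library, RRM2 to RRM1 on the left and RRM2B to RRM2 on the right, for the NC and shPRMT6 libraries. Points are libraries with a shape for each replicate number, and the black bars are mean ± SD of 3. In shPRMT6 the left ratio is about 0.15 in all 3 libraries, below the NC range of 0.382 to 0.778, and the right ratio lies between 1.03 and 1.11, above the NC range of 0.257 to 0.552.

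The genes of the thymidylate route fell as well. TYMS (ENSG00000176890), which makes dTMP, lies on chromosome 18 from 657604 to 673578 on the plus strand. TYMS RNA was 222.6, 188.6 and 198.4 CPM in NC, compared with 115.4, 118.4 and 109.3 CPM in shPRMT6. The groups were far apart compared with their spread, with means of 203.2 ± 17.5 and 114.4 ± 4.64 CPM (SD, n = 3). TYMS fell by 0.83 on the log2 scale (SE 0.0782, edgeR adjusted p = 0.0016) and passed in each fit without 1 library. On the opposite strand ENOSF1 covers 39.1% of the exon bases of TYMS. The use of strand in counting is not stated, and if strand was not used the reads of both genes cannot be told apart there. ENOSF1 itself was at 45.1, 57.1 and 39.1 CPM in NC and at 37.9, 37.5 and 34.5 CPM in shPRMT6 (edgeR adjusted p = 0.132).

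DUT (ENSG00000128951), the dUTPase that supplies dUMP and keeps uracil out of DNA, lies on chromosome 15 from 48331011 to 48343373 on the plus strand. Its RNA was 81.7, 59.4 and 71.1 CPM in NC and 47.3, 35.7 and 48.6 CPM in shPRMT6, in the order of the replicates. The groups did not overlap, and replicate 2 was the lowest library in both. DUT fell by 0.69 on the log2 scale (SE 0.161, edgeR adjusted p = 0.0297). Leaving out 1 library at a time, the call was lost in 5 of 6 fits and stood only without NC replicate 2, and the edgeR adjusted p over those 6 lay between 0.0248 and 0.0855. An antisense gene, AC023355.1, covers 14.5% of the DUT exon bases.

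DTYMK (ENSG00000168393), the kinase that turns dTMP into dTDP, lies on chromosome 2 from 241675742 to 241686991 on the minus strand. DTYMK RNA was 91.7, 70.0 and 81.5 CPM in NC and 66.4, 58.7 and 55.7 CPM in shPRMT6. Although the groups did not overlap, the lowest NC library was close to the highest shPRMT6 library. The log2 fold change of -0.43 (SE 0.118) passed by the narrowest margin of the 9 genes (edgeR adjusted p = 0.04998). This call too was lost in 5 of 6 such fits and stood only without NC replicate 2, where the edgeR adjusted p lay between 0.0255 and 0.152 over the 6.

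The salvage kinases TK1 and DCK both fell. TK1 (ENSG00000167900), the cytosolic thymidine kinase of S phase, lies on chromosome 17 from 78174075 to 78187233 on the minus strand. Its RNA was 118.0, 93.8 and 112.0 CPM in NC and 47.7, 49.4 and 43.1 CPM in shPRMT6. Each shPRMT6 library held less TK1 RNA than any NC library, with means of 46.7 ± 3.29 against 108.0 ± 12.6 CPM (SD, n = 3). TK1 fell by 1.21 on the log2 scale (SE 0.105, edgeR adjusted p = 0.00126), which was the smallest p of the 9 genes, and it passed in each fit that left out 1 library.

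DCK (ENSG00000156136), which phosphorylates deoxycytidine and also activates nucleoside analogue drugs, lies on chromosome 4 from 70992538 to 71030914 on the plus strand. DCK RNA was 50.02, 48.8 and 49.8 CPM in NC and 32.4, 35.1 and 34.3 CPM in shPRMT6. These were the tightest NC values of the 9 genes (coefficient of variation 1.38%), so that a moderate log2 fold change of -0.55 (SE 0.0677, edgeR adjusted p = 0.00354) passed in each fit that left out 1 library.

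SAMHD1 (ENSG00000101347), which breaks down deoxynucleoside triphosphates, lies on chromosome 20 from 36889773 to 36951901 on the minus strand. Its RNA was scarce, with 14.2, 8.56 and 17.9 CPM in NC and 15.5, 9.1 and 9.51 CPM in shPRMT6. The values were scattered, and all shPRMT6 values lay within the NC range. The log2 fold change was -0.25 (SE 0.319, edgeR adjusted p = 0.642), and in fits without 1 library it ranged from -0.54 to -0.000829, so that a difference of this size was not detectable beside the scatter of SAMHD1 (coefficient of variation 34.8% in NC and 31.4% in shPRMT6). TLDC2 on the opposite strand covers 10.3% of its exon bases.

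**Figure D3:**
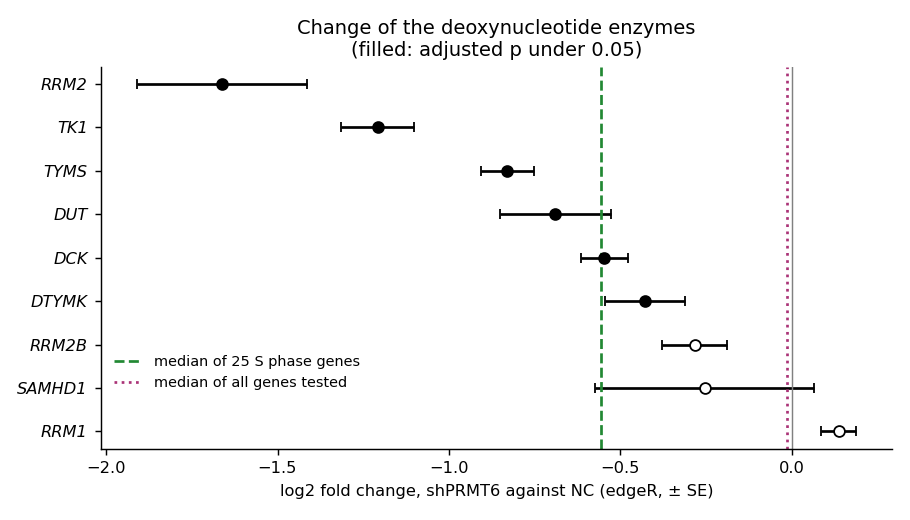
Points show the log2 fold change of each enzyme in shPRMT6 against NC (x axis) with its SE, filled where the edgeR adjusted p was under 0.05. The dashed line is the median of 25 S phase genes (-0.56) and the dotted line the median of all genes tested (-0.013). RRM2, TK1, TYMS and DUT lie left of the dashed line and RRM1 right of 0.

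The NC libraries differed in a similar way for several of these genes. NC replicate 1 was the highest NC library for all 6 genes that fell, and NC replicate 2 was the lowest for 5 of them. Of 25 S phase genes, NC replicate 1 was the highest NC library in 12 and NC replicate 2 the lowest in 11, and over all genes tested these shares were 34.9% and 34.4%. The mean log2 CPM of the S phase genes was 6.03, 5.997 and 6.02 in the NC libraries, compared with 5.44, 5.48 and 5.43 in shPRMT6, a difference of -0.57. The S phase list holds 25 genes, most of them of DNA replication. The rest include genes of cyclin E, chromatin assembly, histone RNA and DNA methylation. Among the replication genes are MCM7, a subunit of the replicative helicase (log2 fold change -0.79), POLA1, the catalytic subunit of the primase-polymerase complex (-0.94), and MCM4 (-0.53). Of the 25, with a median of -0.56, 20 were lower and 0 higher by edgeR, where 9.06% of all genes tested were lower and 9.51% higher. At an unadjusted p under 0.05, 23 were lower and 0 higher, where 16.3% of all genes were higher. The share of all genes lower at that p was not computed. By DESeq2 0 were higher, where 2940 of 18106 genes were.

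Each enzyme was therefore set against the mean of the 25 S phase genes of the same library, as a difference of log2 CPM. Against this level RRM2 was lower in shPRMT6 by -1.03 (0.855 ± 0.068 against 1.89 ± 0.502), TK1 by -0.64 and TYMS by -0.26 (SD, n = 3), and for these 3 of 9 genes the groups did not overlap, where 2.77% of all genes tested were lower without overlap on this scale. A gene with no change in CPM reads as higher here, and the median of all genes was 0.56. RRM1 was at 2.48 ± 0.0586 against 1.77 ± 0.0556 (SD, n = 3), a difference of 0.70 without overlap, where 58.1% of all genes were higher without overlap. DCK (0.02), DUT (-0.12), DTYMK (0.14), RRM2B (0.29) and SAMHD1 (0.33) overlapped between groups on this scale. These differences are descriptions with 3 libraries against 3, and the part that the share of cells in S phase has in them was not tested.

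**Figure D4:**
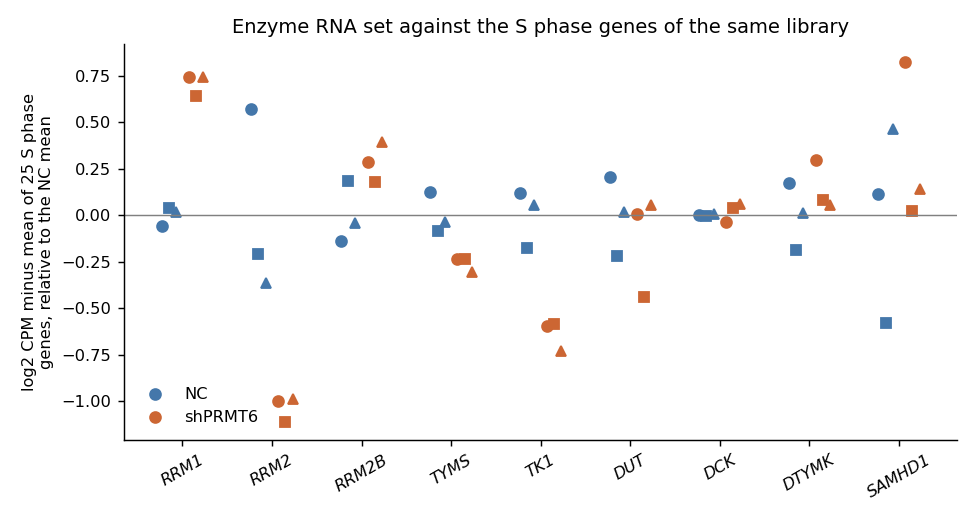
The y axis gives log2 CPM minus the mean log2 CPM of 25 S phase genes of the same library, with the NC mean of each gene set to 0. Points are libraries, coloured by group, with a circle, square and triangle for replicates 1, 2 and 3. RRM2, TYMS and TK1 lie lower and RRM1 higher in all shPRMT6 libraries, and the other genes overlap.

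By level per length, TYMS was the most abundant of the 9 RNAs in NC with 70.6 ± 5.6 FPKM, followed by TK1 (49.2 ± 5.63), RRM1 (43.9 ± 1.66), DTYMK (28.4 ± 3.66), RRM2 (22.9 ± 8.5), DUT (16.2 ± 2.47), DCK (13.4 ± 0.215), RRM2B (9.31 ± 0.998) and SAMHD1 (1.06 ± 0.375; SD, n = 3). TK1 and RRM1, DTYMK and RRM2, RRM2 and DUT, and DUT and DCK were neighbours whose NC ranges overlapped. In shPRMT6 the order began with RRM1 at 48.6 ± 1.2 FPKM, then TYMS (40.0 ± 1.56), TK1 (21.4 ± 1.47) and DTYMK (21.2 ± 1.93), and the ranges of the last pair overlapped. DUT (10.1 ± 1.65), DCK (9.24 ± 0.38), RRM2B (7.7 ± 0.466), RRM2 (7.29 ± 0.223) and SAMHD1 (0.889 ± 0.28) followed, where DUT overlapped with DCK and RRM2B with RRM2. RRM1 thus moved from rank 3 to rank 1 and RRM2 from rank 5 to rank 8. With CPM per kb of principal transcript RRM2 ranked 2 in NC (72.9 ± 27.7) and 5 in shPRMT6 (23.0 ± 0.678), so its place in the order depends on the length used, whereas its drop between the groups does not.

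The median changes of the other groups of nucleotide metabolism lay nearer to 0 than that of the 9 enzymes, a difference that was not tested. The counts below stand beside 9.06% of all genes lower and 9.51% higher. Of 12 folate cycle genes, 4 were lower and 1 was higher, with a median log2 fold change of -0.24. SHMT2, the mitochondrial serine hydroxymethyltransferase (-0.90, edgeR adjusted p = 0.00153), and the mitochondrial enzymes MTHFD1L (-0.32, edgeR adjusted p = 0.0168) and MTHFD2 (-0.24, edgeR adjusted p = 0.0373) fell. The cytosolic SHMT1 had a log2 fold change of -0.36, larger in size than those of MTHFD1L and MTHFD2, and did not pass (edgeR adjusted p = 0.11). The mitochondrial MTHFD2L (-0.23, edgeR adjusted p = 0.228) and the cytosolic MTHFD1 (-0.07, edgeR adjusted p = 0.438) did not pass either. A difference between the compartments was not tested.

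Among 19 tested genes of 20 for further salvage enzymes and nucleotide kinases, 3 were lower, 2 were higher and the median was 0.00327, with shares near those of all genes (9.06% lower and 9.51% higher), so that the genes below are named as single genes. HPRT1, which salvages hypoxanthine and guanine (-0.64, edgeR adjusted p = 0.00244), and DGUOK, the mitochondrial deoxyguanosine kinase (-0.39, edgeR adjusted p = 0.0366), fell. APRT, which salvages adenine (0.58, edgeR adjusted p = 0.00299), and AK3 (0.33, edgeR adjusted p = 0.0105) rose. TK2, the mitochondrial counterpart of TK1, had a log2 fold change of 0.29 that missed the threshold (edgeR adjusted p = 0.0626). For CMPK1, the kinase of CMP and UMP, the value was -0.29 (edgeR adjusted p = 0.412), with shPRMT6 replicate 2 at 245.5 CPM against 141.2 and 142.6 CPM in the other shPRMT6 libraries. NME1, a nucleoside diphosphate kinase, was at 156.3 ± 7.81 CPM in NC and 156.7 ± 12.4 CPM in shPRMT6 (SD, n = 3).

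Of 18 genes for new synthesis of purine and pyrimidine ribonucleotides, 3 were lower and 1 higher (median -0.14). PRPS2, which makes the activated ribose phosphate, fell (-1.43, edgeR adjusted p = 0.0107), from 38.3, 71.1 and 39.3 CPM in NC to 18.1, 18.9 and 18.2 CPM in shPRMT6, where NC replicate 2 stood above the rest. PFAS (-0.62, edgeR adjusted p = 0.00313) and GMPS (-0.34, edgeR adjusted p = 0.00658) of the purine route fell, and UMPS, which makes UMP, rose (0.39, edgeR adjusted p = 0.0244). CTPS1, the CTP synthase, had a log2 fold change of 0.15 (edgeR adjusted p = 0.248).

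Of 16 genes of nucleotide breakdown and pool sanitation, 4 were lower and 2 higher (median -0.23). DCTPP1, a pyrophosphatase that removes dCTP and its analogues (-0.86, edgeR adjusted p = 0.0442), NUDT1, which removes oxidised purine nucleotides (-0.74, edgeR adjusted p = 0.0171), NUDT18 (-0.69, edgeR adjusted p = 0.0167) and DCTD, the dCMP deaminase that supplies dUMP (-0.60, edgeR adjusted p = 0.0113), fell. PNP, the purine nucleoside phosphorylase (0.44, edgeR adjusted p = 0.0157), and NT5E, the surface nucleotidase CD73 (0.39, edgeR adjusted p = 0.00404), rose. The counts of DCTPP1 are uncertain if strand was not used, since ZNF771 covers 42.1% of its exon bases on the opposite strand. CDA (-0.26, edgeR adjusted p = 0.243) and NT5C (-0.40, edgeR adjusted p = 0.544) did not pass. Of 9 nucleoside transporter genes 7 were tested and 0 passed in either direction by edgeR at an adjusted p under 0.05. At an unadjusted p under 0.05, 2 were lower and 1 higher, where 16.3% of all genes were higher and the lower share was not computed. The same counts were seen with DESeq2, where 15.7% of all genes were lower and 2940 of 18106 higher. SLC29A1, the equilibrative transporter that brings nucleosides into the cell, had a log2 fold change of -0.49 (edgeR adjusted p = 0.0764). Exons of PNP, NT5C, SHMT2, TK2, NME1, and of MCM7, CCNF, CCNA2 and CDKN1A named elsewhere, also overlap other annotated genes, so their counts are uncertain in part. With 1 library left out at a time, the calls of DGUOK, UMPS and DCTPP1 were lost in 5 of 6 fits, those of MTHFD1L and PNP in 4, that of NUDT18 in 3, that of NUDT1 in 2 and that of AK3 in 1, with an edgeR adjusted p of at most 0.132.

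**Figure D5:**
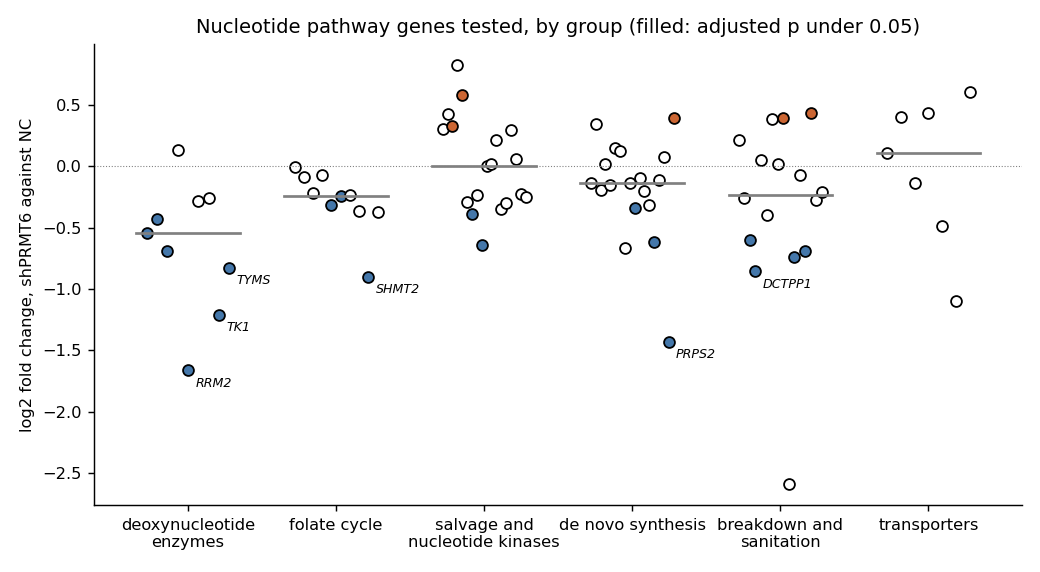
Each point is a tested gene of those reported here, with its log2 fold change in shPRMT6 against NC on the y axis and its pathway group on the x axis, filled where the edgeR adjusted p was under 0.05 (blue lower, orange higher). Grey bars are medians over all tested genes of a group, -0.55 for the deoxynucleotide enzymes and between -0.24 and 0.11 for the other groups. The open point at -2.59 is NT5M, which was at 0.456 CPM or less on average in both groups.

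Genes that act on RRM2 or on E2F targets were also described. The edgeR counts at an adjusted p under 0.05 for this list and the p53 and interferon lists below stand beside 9.06% of all genes lower and 9.51% higher. Of 10 tested genes of 11, 8 were lower and 0 higher by edgeR (median -0.69). In addition, 1 was higher at an unadjusted p under 0.05, where 16.3% of all genes were, and 1 by DESeq2, where 2940 of 18106 were. E2F1 fell by 0.62 on the log2 scale (edgeR adjusted p = 0.00199) and E2F2 by 1.16 (edgeR adjusted p = 0.00114), both activating E2F factors. The fall was not limited to these, since E2F3 (-0.49, edgeR adjusted p = 0.00968) and the repressing factor E2F8 (-0.75, edgeR adjusted p = 0.00491) fell too. CCNF, the F-box protein that marks RRM2 protein for degradation, fell by 0.97 (edgeR adjusted p = 0.00156), and so did CCNA2, encoding cyclin A, by 0.85 and CDK1 by 0.82. Among 20 p53 targets, whose regulator also acts on RRM2B, 8 were lower and 1 higher (median -0.41). CDKN1A (-0.69, edgeR adjusted p = 0.00364), TNFRSF10B (-0.59) and SESN2 (-0.54) fell and TP53I3 rose (1.47, edgeR adjusted p = 0.00196), beside -0.28 for RRM2B. SAMHD1 is known as an interferon-induced gene in some cells. Of 24 tested interferon response genes of 25, 1 was lower and 5 were higher (median 0.22), among them RIGI (0.75), IFIT2 (0.69) and USP18 (1.73) that rose and OAS3 (-0.98) that fell, beside -0.25 for SAMHD1.

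The genes whose log2 CPM over the 6 libraries was most like that of RRM2, by Pearson's r, included CCT2 (0.998), RPS6 (0.996), BIN1 (0.995) and NPTN (0.995), out of 10048 genes whose log2 CPM averaged 3 or more. An r above 0.95 was reached by 320 genes for RRM2 and by 15 for SAMHD1. Closest to SAMHD1 were TMEM116 (0.998), KDM7A-DT (0.973), MAD2L1BP (0.969), COA4 (0.968) and DNASE1L1 (0.968). CCT2, a chaperonin subunit, differed far less in size than RRM2, with a log2 fold change of -0.20. These values describe likeness of shape over libraries that share the split into NC and shPRMT6, and carry no test.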

How the data were processed

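Sequencing of U87 RNA gave 3 NC and 3 shPRMT6 libraries, grouped by the labels. Libraries were made with the NEBNext Ultra RNA kit, and the submitters' processing notes name HISAT2, HTSeq 0.13.5 and GRCh38. For each gene and library the authors deposited a raw count. The authors also deposited FPKM values, counts scaled to gene length and library size. Use of strand in counting is not given in the sources used here.

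Counts were tested with edgeR 4.0.16 in R 4.3.3 (TMM, filter on low counts by group, quasi-likelihood test, Benjamini-Hochberg adjustment over 18106 genes, threshold 0.05), without a block. CPM values are TMM scaled, and errors are SD over 3 libraries. Subunit ratios of FPKM were compared with two-sided exact permutation tests. No library was a duplicate of another, by a chi-square test of counts within groups (53.05 to 86.34 per degree of freedom). Total counts were 56388161 to 75887696 per library.

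Alternatives were DESeq2 1.42.0, upper quartile factors or no scaling, a minimum of 10 counts in all libraries or of 1 in any, a replicate block, limma 3.58.1 on FPKM (log2 after adding 1 or 0.1, for genes averaging 1 FPKM or more, or with no filter), an adjusted p under 0.01, the threshold of the methods, and each library left out in turn. Positions, exon overlaps and shared 75-base stretches came from GENCODE 29 (GRCh38), read with Python 3.11.15 and SciPy 1.17.1. The 9 genes and all lists were chosen with earlier results of these data known. Beside the 9 and PRMT6, genes named were up to 3 with the smallest p in each direction of a list, a set of pathway genes, and the 5 most like RRM2 and SAMHD1. MTHFD1, MTHFD2, MTHFD2L, E2F3, E2F8, SLC29A1, NT5M, ENOSF1 and the marker genes stand outside that rule and were named after their values were seen. The values of some genes under that rule are not reported here. On simulated counts of 17553 genes for this comparison, edgeR recovered 76% of 100 genes changed by 1 and 99% of 100 changed by 2 on the log2 scale, with 4.89% false calls. DESeq2 recovered 80% and 99% with 15.2% false calls over 18106 genes. The simulated counts took their spread from its average trend with expression, and only these genes, all with ample counts, were changed. The shares of false calls therefore need not hold for the real data.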

Additional observations from a re-analysis of the deposited data

How the results depend on the processing

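Over the alternatives, RRM2, TYMS, TK1 and DCK stayed lower with an adjusted p under 0.05 in all fits. For the ratio of RRM2 to RRM1 the log2 difference lay between -1.93 and -1.42 without 1 library. SAMHD1 lay under the limma filter on FPKM and was not tested there. Of the 9 enzymes, 7 were lower and 1 higher (RRM1) with DESeq2, where 15.7% of all genes tested were lower and 2940 of 18106 higher. DESeq2 also made more false calls on simulated data, in which far fewer genes changed than were called here. At an adjusted p under 0.01, 4 of the 9 were lower (3.57% of all genes), 4 with limma without a filter (4.06%), 5 with upper quartile factors (9.26%), 5 with at least 1 count in any library (4.2%), 4 to 6 without 1 library (4.52% to 8.1%), and 2 by the threshold of the methods (2.63%). The cause of these differences was not tested. Over all genes tested, libraries with the same replicate number did not deviate together. The correlations of deviations were -0.030 to -0.017, beside -0.019 to 0.045 for libraries with different numbers. A pairing limited to a few genes was not tested. With the number as a replicate block 5 of the 9 enzymes were lower (5.01% of all genes), 908 genes in all were lower and 950 higher, compared with 1641 and 1721 without the block, and there were 2 lower folate cycle genes, 1 lower breakdown gene and 0 higher de novo synthesis genes.

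With DESeq2, the salvage list had 5 lower and 4 higher genes, the interferon list 2 and 9, the transporters 2 and 1, and 2 p53 targets, 2 de novo synthesis genes and 1 E2F regulator were higher. These counts stand beside 15.7% of all genes lower and 2940 of 18106 genes higher with DESeq2. At an adjusted p under 0.01, 4 p53 targets, 2 folate and 0 breakdown genes were lower, and 1 breakdown, 1 salvage, 0 folate and 0 de novo synthesis genes were higher. There, 3.57% of all genes were lower. By the threshold of the methods, 1 gene each of the p53, E2F regulator, folate, breakdown, de novo synthesis and transporter lists and 0 salvage and 0 S phase genes were lower, and 1 interferon gene and 0 folate, breakdown, salvage and de novo synthesis genes were higher. That threshold was met by 2.63% of all genes as lower and 3.29% as higher. The limma fits with a filter gave 4 higher salvage genes, 1 higher transporter and 0 higher folate genes, the limma fit without one 0 higher folate genes, and a minimum of 10 counts 1 higher transporter. Over all genes, 1608 and 1590 of 11355 were higher in the filtered limma fits with 1 and 0.1 added. In the unfiltered fit 1353 of 29592 were higher, and with the minimum of 10 counts 1842 of 15581. Without 1 library, the lists gave 2 to 3 lower and 0 to 1 higher folate genes, 1 to 4 lower and 1 to 2 higher breakdown genes, 1 to 3 higher salvage genes, 0 to 1 higher de novo synthesis genes, 0 to 1 lower transporters and 1 to 2 higher p53 targets. In those fits 4.52% to 8.1% of all genes tested were lower, and 898 to 1661 genes were higher. The NME1 log2 fold change turned negative with no scaling (-0.000304), with upper quartile scaling (-0.00401) and without NC replicate 3 (-0.035) or shPRMT6 replicate 3 (-0.0617), and lay between -0.0617 and 0.0407 without 1 library. The TMEM116 log2 fold change turned positive without NC replicate 3 (0.00957) and lay between -0.15 and 0.00957 without 1 library.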
